A study of Mus musculus with 3 samples.

Results

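The SWI/SNF genes described here are 10 mouse genes that encode subunits of the SWI/SNF (BAF) chromatin remodelling complexes: Arid1a, Arid1b, Arid2, Smarca2, Smarca4, Smarcb1, Smarcc1, Smarcc2, Smarcd1 and Smarce1. The data are peaks of 5-hydroxymethylcytosine (5hmC) in bone marrow cells. TET enzymes make this base by oxidising methylated cytosine. A peak was assigned to a gene when its midpoint lay in the gene's span on the mm10 genome build or within 5 kb of it. The assignment used positions only, and the genes were named with earlier results of these data known. It gave 452 of the 208468 distinct peaks, at 10 of 21779 protein-coding genes.

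The series has 2 samples of an acute myeloid leukaemia named NIDF-AML and 1 sample of normal mouse bone marrow. Per the labels, the leukaemia cells were induced by the IDH2 change R140Q, the nucleophosmin mutant NPMc, the DNMT3A change R882H and FLT3-ITD, an internal tandem duplication of the receptor FLT3. The same labels give no strain, age or sex and do not say whether cells of different animals were pooled. DNA was sonicated, its 5hmC was tagged with an azide glucose and coupled to biotin, and the captured fragments were sequenced on an Illumina HiSeq2000.

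What the peaks belong to is limited. The lists filed under leukaemia replicates 1 and 2 held the same 223267 lines and were counted as 1 list. Their headers name the library of index 4 as treatment, against index 5 in the first list and index 6 in the second. The sources used here do not say whether index 4 is leukaemia or normal marrow, so each value below belongs to the index 4 library, has no replicate, and supports no comparison of leukaemia with normal marrow. The lists give positions only, with no height or score, and read depth is unknown. A stretch without a peak is therefore one where none was listed, which does not show that 5hmC was absent. Peaks were listed within 5 kb of 73.1% of all protein-coding genes and of 10 of 10 marker genes of blood cells, 4 to 38 per gene. The same held for 4 of 10 marker genes of liver, neurons, heart, epithelium and marrow stroma. Of these, Cdh1 had 21, Apoa1 and Ttn 3 each and Myh6 1, while Alb, Snap25, Syt1, Krt5, Cxcl12 and Lepr had 0.

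SWI/SNF complexes use the energy of ATP to slide or evict nucleosomes and so open DNA for transcription factors. Each complex is built around 1 ATPase, either Smarca4 (also called Brg1) or Smarca2 (Brm). Its canonical BAF and PBAF forms also share core subunits (Smarcb1, Smarcc1 and Smarcc2, Smarcd1, Smarce1). The ARID subunits tell these forms apart: Arid1a or Arid1b in canonical BAF and Arid2 in PBAF. Brg1 is needed in mouse acute myeloid leukaemia cells and in normal blood formation. Within genes, 5hmC is known to be found along the bodies of transcribed genes and to be low at CpG-rich start sites.

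The start regions of 4 of the genes are shown first. No listed peak touched a start window of the 8 genes that have one, and over all protein-coding genes with a window only 4.01% had one there. RefSeq (build GRCm38.p6, with the same chromosome coordinates as mm10) gave a window of 250 bases before to 50 bases after the start site for 8 of the 10 genes, with 2 windows for Arid1a. The sequences below are the parts of those windows that lie before the gene's span, for the gene with the most peaks per kb among the 4 (Arid1a), the ATPase gene Smarca4, the core gene Smarcb1 and the gene with the fewest peaks per kb (Smarcc1). They are written 5′ to 3′ on the gene's strand, and capitals mark each CG dinucleotide, the main site of cytosine methylation.
Arid1a, chr4:133756770-133757019, minus strand: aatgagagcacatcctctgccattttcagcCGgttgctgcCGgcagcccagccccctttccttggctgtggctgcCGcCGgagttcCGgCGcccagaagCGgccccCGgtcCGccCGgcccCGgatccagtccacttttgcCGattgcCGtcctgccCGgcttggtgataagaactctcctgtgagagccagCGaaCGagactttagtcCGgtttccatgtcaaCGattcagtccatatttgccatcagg
Smarca4, chr9:21615919-21616105, plus strand: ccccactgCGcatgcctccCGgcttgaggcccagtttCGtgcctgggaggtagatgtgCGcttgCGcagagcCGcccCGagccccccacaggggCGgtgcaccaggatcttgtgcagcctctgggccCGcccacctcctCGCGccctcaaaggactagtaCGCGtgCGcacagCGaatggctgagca
Smarcb1, chr10:75921615-75921864, minus strand: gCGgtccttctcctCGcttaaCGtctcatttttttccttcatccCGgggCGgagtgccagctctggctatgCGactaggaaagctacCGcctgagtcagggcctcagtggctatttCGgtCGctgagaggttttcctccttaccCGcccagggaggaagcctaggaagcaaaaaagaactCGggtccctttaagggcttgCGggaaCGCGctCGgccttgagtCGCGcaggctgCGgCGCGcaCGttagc
Smarcc1, chr9:110131774-110132023, plus strand: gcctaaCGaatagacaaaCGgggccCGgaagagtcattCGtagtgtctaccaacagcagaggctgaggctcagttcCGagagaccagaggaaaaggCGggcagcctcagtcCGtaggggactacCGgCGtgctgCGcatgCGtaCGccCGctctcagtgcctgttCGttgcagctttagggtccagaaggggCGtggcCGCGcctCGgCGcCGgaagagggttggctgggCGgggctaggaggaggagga

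These runs hold 18 CG in 250 bases for Arid1a, 15 in 187 for Smarca4, and 21 in 250 for Smarcb1 and for Smarcc1. CG reads the same on both strands, so each was counted once. In the whole windows of 300 bases, the 8 genes had 22 (Arid1a) to 48 (Smarcc2) CG with a median of 33, against a median of 13 over all 17492 protein-coding genes with a window, of which 94.8% held at least 1 CG. At least 22 CG were found in 31.3% of all windows.

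No peak overlapped any of the 9 windows of the SWI/SNF genes. By an approximate limit, 3 divided by the number of windows, a count of 0 allows a share of up to 33.3%. The share over all genes was also low, at 4.01%, so the count of 0 is no result about these genes. Among the 5467 windows with at least 22 CG 1.41% held a peak, and among the 12025 with fewer 5.19% did. Within 1 kb of the start site on both sides, 0 of the 8 genes had a peak midpoint (a limit of 37.5% by the same rule), against 25.9% of all genes. At all genes with at least 22 CG that share was 27.6%, close to the 25.2% of genes with fewer.

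At this number of genes the 0 cannot be told from the density of all genes at the same distance. On each side of the start site the exact Poisson interval was 0 to 0.461 per kb, which includes the 0.182 upstream and 0.148 downstream of all genes. The same 8 genes had 0.500 per kb at 1 to 2.5 kb upstream and 0.583 at 1 to 2.5 kb downstream. Both values are above 0.461, but their intervals (0.183 to 1.09 and 0.235 to 1.20) include it, so no dip at the start sites can be read from them. The nearest peak lay 1035 bp from the start site of Smarca4, 1089 bp from that of Smarcd1, 1326 bp from that of Smarcb1, 1697 bp from that of Arid1a, 1804 bp from that of Smarcc2 and 2304 bp from that of Smarcc1. It lay 3337.5 bp away at Arid1b and 3398 bp away at Smarca2. The median distance was 1750.5 bp for the 8 genes and 2636 bp for all genes with a window. The start sites used for Arid1b, Smarca2, Smarca4 and Smarcc2 lie inside the annotated span. At these genes, distances from the start site and windows counted from the start of the gene therefore have different origins.

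Counted together, the 8 genes had 7 peaks at 1 to 2.5 kb downstream of the start site, or 0.583 per kb (exact Poisson interval 0.235 to 1.20), against 0.279 per kb over all genes. They had 6 peaks at 1 to 2.5 kb upstream, or 0.500 per kb (0.183 to 1.09), against 0.189. Of these 6, 3 lay upstream of Smarcd1 in Asic1 and 1 upstream of Smarcb1 in Mmp11, and without Smarcd1 the value was 0.286 per kb (0.0589 to 0.835). At 10 to 20 kb downstream of the start site, within the gene, the 8 genes had 33 peaks, or 0.460 per kb (0.317 to 0.646), against 0.185. Arid1b held 16 and Arid1a 10 of these 33. Without Arid1a and Arid1b the other 6 genes had 7, or 0.135 per kb (0.0544 to 0.279), so the higher value rests on these ARID genes. All Poisson intervals here are at 95%. They cover counting error only and take each peak as independent of its neighbours.

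**Figure D1:**
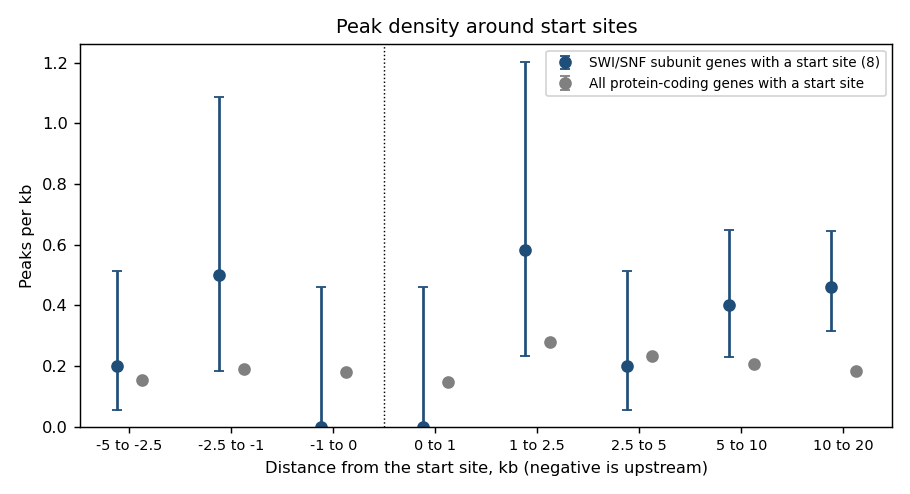
Peaks per kb (y axis) by distance from the start site in kb (x axis, negative is upstream) for the 8 SWI/SNF genes with a start site in the RefSeq table (blue) and for all protein-coding genes with one (grey); bars are exact 95% Poisson intervals and the dotted line is the start site. The SWI/SNF genes had 0 peaks in the 1 kb on each side of the start site and 0.583 per kb at 1 to 2.5 kb downstream.

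A peak lay within 5 kb of all 10 SWI/SNF genes, where 73.1% of protein-coding genes had one, and in the body of all 10, where 66.6% had one. With at least 1 peak per 10 kb of body there were 9 of 10 SWI/SNF genes, Smarcc1 being the exception, against 49% of all. Of the 452 peaks, 417 (92.3%) lay in the gene bodies and 35 outside. The number in the body was highest in Arid1b, with 235, and lowest in Smarcd1, with 2. Arid1a and Arid1b together held 286 of the 417 (68.6%). The median of the 10 genes was 0.246 peaks per kb of body, against 0.0941 over all protein-coding genes. SWI/SNF genes are longer than most, with a median span of 82.9 kb against 17.2 kb, and a longer gene has more room for peaks. Each gene was therefore also set beside the 200 protein-coding genes nearest to it in span. In 8 of 10 genes the number of body peaks was above the median of those genes. With the 100 nearest genes, or with repeated lines counted, this held for 7.

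**Figure D2:**
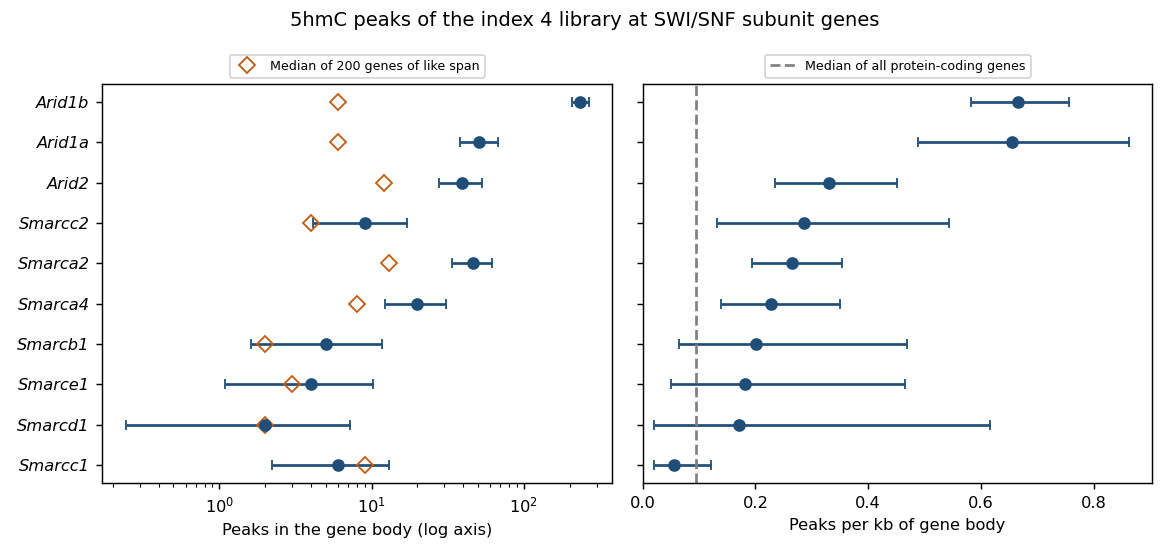
Left, peaks in the gene body (log x axis) for the 10 SWI/SNF genes (points, with exact 95% Poisson intervals) and the median of 200 protein-coding genes of like span (open diamonds). Right, peaks per kb of gene body with the same intervals; the dashed line is the median of all protein-coding genes, 0.0941. Arid1b and Arid1a stand at 0.665 and 0.656 per kb and Smarcc1 at 0.0555.

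Of the 10 genes, the ARID subunit genes Arid1b, Arid1a and Arid2 had the most peaks per kb of body. The third place of Arid2 is not firm: with repeated lines counted, Smarcc2 had 0.350 per kb and Arid2 0.331. Arid1b (chromosome 17, 4994297 to 5347656, 353 kb) had 235 body peaks (206 to 267), the third highest number of all protein-coding genes. The 200 genes nearest in span had a median of 6, and 99.5% of them had fewer peaks than Arid1b. Arid1a (chromosome 4, 133679008 to 133756769, 77.8 kb), often mutated in human cancers, had 51 body peaks (38.0 to 67.1), where the median at its own span was 6 and 98.5% had fewer. Per kb the values of these alternative subunits were close: 0.665 for Arid1b (0.583 to 0.756) and 0.656 for Arid1a (0.488 to 0.862). The ratio of Arid1b to Arid1a was 1.01, with an exact interval of 0.746 to 1.40, an interval that still holds a difference of 1.40-fold.

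Peaks ran along the whole of both genes without a long break. Of the 235 body peaks of Arid1b, 23 also lay in the overlapping non-coding gene Gm34854 and 1 in the pseudogene Gm15599, so these 24 cannot be assigned to Arid1b alone. In the 35 full windows of 10 kb of Arid1b the lowest number of peaks was 2, the median 6 and the highest 15, the highest lying 10 to 20 kb from the start of the gene. The 8 windows of Arid1a, from the start of the gene on, held 5, 10, 7, 3, 6, 8, 6 and 6 peaks. No window of either gene was empty. The longest stretch without a peak was 7.31 kb in Arid1b (5111983 to 5119293), where 556 other genes of at least 300 kb had a median longest stretch of 271 kb and 555 of them had one at least as long. In Arid1a it was 5.24 kb (133749832 to 133755072), where 647 other genes of 70 to 85 kb had a median of 29.7 kb and 98.8% had one at least as long. These shares follow in part from the number of peaks itself. Listed intervals covered 4.54% of Arid1b and 3.91% of Arid1a.

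Arid2 (chromosome 15, 96287522 to 96405463, 118 kb), the ARID subunit of PBAF, had 39 body peaks (27.7 to 53.3), or 0.331 per kb. The median at that span was 12, and 87% of the 200 genes had fewer. By rising coordinate, its 11 full windows held 1, 3, 3, 6, 5, 6, 5, 0, 5, 2 and 2 peaks, with more in the middle than near either end. Its longest stretch without a peak was 15.8 kb (96354896 to 96370664).

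The ATPase genes had fewer peaks per kb than Arid1a and Arid1b and differed in layout. Smarca2 (chromosome 19, 26605073 to 26778321, 173 kb) had 46 body peaks (33.7 to 61.4), or 0.266 per kb, where the median at that span was 13 and 84% had fewer. Smarca4 (chromosome 9, 21616106 to 21704230, 88.1 kb) had 20 (12.2 to 30.9), or 0.227 per kb, against a median of 8, and 72.5% had fewer. The ratio of Smarca2 to Smarca4 per kb was 1.17 (0.678 to 2.09), an interval that includes equal densities and a difference of 2.09-fold.

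In Smarca4 the peaks stood at the ends of the gene. Its 9 windows held 4, 3, 0, 0, 0, 0, 4, 6 and 3 peaks from the start on. Between the peak at chr9:21635720-21635788 and the next at chr9:21677540-21677632 lay 41.8 kb without a listed peak, 47.5% of the gene. Among 202 other genes of 70 to 110 kb with 15 to 25 body peaks the median longest stretch was 17.6 kb, and 9 of them (4.46%) had one at least as long as that of Smarca4. These limits were chosen after the stretch was seen, so the share describes it and tests nothing. On the start side of the stretch 7 peaks lay within 19.6 kb of the start site, and beyond it 13 lay 61.4 to 85.1 kb from the start site. A further 3 peaks lay within 5 kb past the end and 1, at chr9:21615100-21615168, before the start.

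Smarca2 had no such gap. Its 17 full windows had a lowest number of 0, a median of 2 and a highest of 6, and 1 window was empty. The longest stretch without a peak was 14.0 kb. Towards its end, 4 intervals were listed more than once each, all inside the overlapping non-coding gene 4931403E22Rik, and the peaks there cannot be told apart between the genes.

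**Figure D3:**
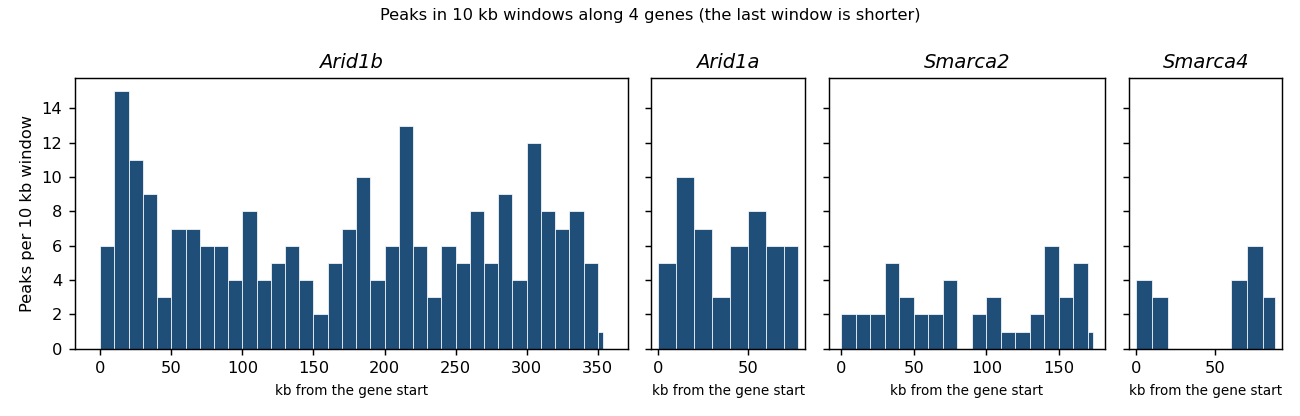
Peaks per 10 kb window (y axis) by distance from the start of the gene in kb (x axis) for Arid1b, Arid1a, Smarca2 and Smarca4; the last window of each gene is shorter. Arid1b and Arid1a had peaks in every window, and Smarca4 had 0 in 4 windows in a row.

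The density of peaks around the genes also differed. In the 500 kb on each side beyond the 5 kb flanks, Smarca2 had 22 peaks, or 0.0220 per kb, and the other 9 genes had 0.207 to 0.452 per kb, against a median of 0.125 around all protein-coding genes. Smarca2 thus had 12.1 times as many peaks per kb in its body as in its surroundings (exact interval 7.11 to 21.1), and 98.3% of all genes had a lower ratio. For Arid1b the ratio was 3.21 (2.65 to 3.89) and for Arid1a 1.45 (1.06 to 1.94). For Smarca4 it was 0.569 (0.344 to 0.890) and for Smarcc1 0.226 (0.0820 to 0.498), so these genes had fewer peaks per kb than their surroundings. The intervals of Arid2, Smarcb1, Smarcc2, Smarcd1 and Smarce1 included 1. The median ratio over 21348 protein-coding genes was 0.756, and 44.0% were above 1, as were 4 of the 10 SWI/SNF genes.

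Of the core scaffold genes, Smarcc2 and Smarcc1 encode related subunits that pair with each other in the complex. Smarcc2 (chromosome 10, 128459182 to 128490591, 31.4 kb) had 9 body peaks (4.12 to 17.1), or 0.287 per kb, where the median at that span was 4 and 72.5% had fewer. Smarcc1 (chromosome 9, 110132024 to 110240178, 108 kb) had 6 (2.20 to 13.1), or 0.0555 per kb, where the median at that span was 9 and 57% had more. Per kb the ratio of Smarcc2 to Smarcc1 was 5.16 (1.64 to 17.6), the only ratio of the 3 related pairs whose interval excluded 1. The pairs were known by name, and the interval covers counting error alone.

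The 6 body peaks of Smarcc1 lay at chr9:110134312-110134344, chr9:110162672-110162736, chr9:110193232-110193312, chr9:110227128-110227176, chr9:110229640-110229704 and chr9:110230704-110230816. The first 3 stand alone, and the last 3 lie within 4 kb near the end of the gene, after 33.9 kb without a peak. In Smarcc2 the peaks stood on both sides of 14.2 kb without one (128469160 to 128483320), with windows of 4, 0, 4 and 1 peaks. In successive steps of 25% from the start Smarcc2 had 2, 2, 0 and 5. Smarcc2 had 5 more peaks within 5 kb past its end, 4 of them in the myosin light chain gene Myl6 and 1 in Myl6b, so those cannot be assigned to Smarcc2 alone.

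The 3 shorter core genes had few peaks, and their intervals are wide. Smarcb1 (chromosome 10, 75896769 to 75921614, 24.8 kb), whose loss marks rhabdoid tumours in humans, had 5 body peaks (1.62 to 11.7), or 0.201 per kb, where the median at that span was 2. They lay at chr10:75897560-75897640, chr10:75908080-75908128, chr10:75911544-75911624, chr10:75915624-75915688 and chr10:75920256-75920320. Between the first and the second of these, towards the end of the gene, 10.5 kb (42.3% of the gene) held none. Of its 3 peaks outside the body, 2 were in Derl3 and 1 in Mmp11.

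Smarce1 (chromosome 11, 99209047 to 99231017, 22.0 kb), which carries an HMG box that binds DNA, had 4 body peaks (1.09 to 10.2), or 0.182 per kb, and none within 5 kb outside. The median at that span was 3, and 52% had fewer peaks than Smarce1. They lay at chr11:99211496-99211576, chr11:99212792-99212856, chr11:99213208-99213224 and chr11:99218688-99218720, all towards the low-coordinate end, and the last 12.3 kb held none.

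Smarcd1 (chromosome 15, 99702287 to 99713995, 11.7 kb) had 2 body peaks (0.242 to 7.22), or 0.171 per kb, at chr15:99703352-99703400 and chr15:99704360-99704440. One of them also lay in the non-coding gene Gm34939, and with the shared sequence left out the density was 0.102 per kb. The peaks lay near the start, and the last 9.60 kb of the gene held none. The median at that span was also 2. A further 7 peaks lay outside its body within 5 kb. Of these, 4 were in the upstream gene Asic1, 1 in Gm16537 and 1 in both Gm16537 and Gpd1, so those cannot be assigned to Smarcd1 alone.

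**Figure D4:**
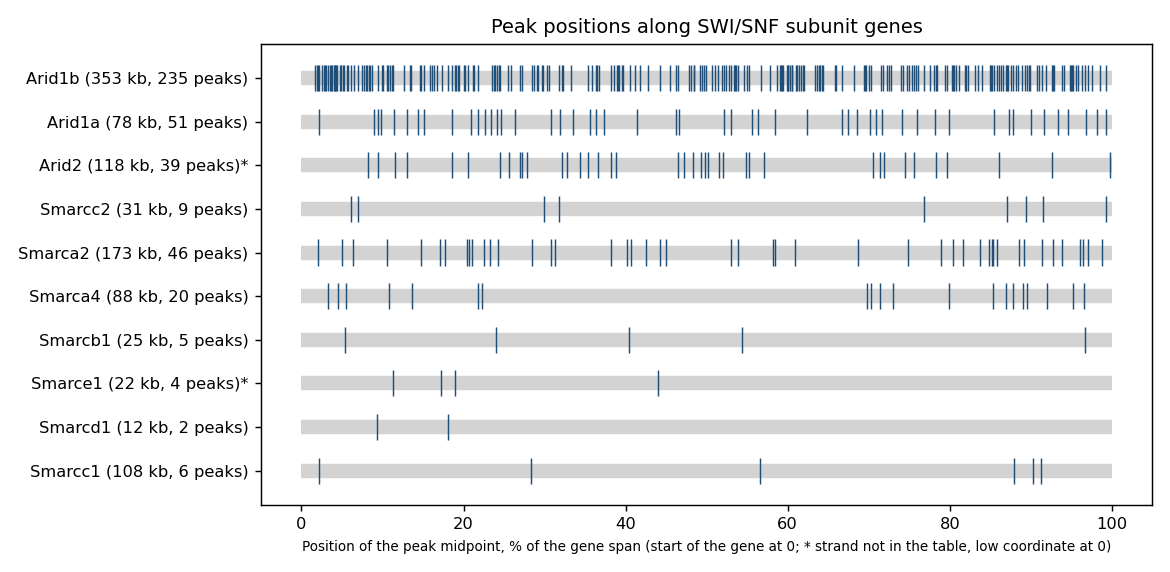
Position of each body peak (vertical lines) as a percent of the gene's span (x axis) for the 10 SWI/SNF genes, ordered by peaks per kb; 0 is the start of the gene, or the low coordinate where an asterisk marks a gene with no strand in the table. Arid1b and Arid1a are filled from end to end, and Smarca4 has no peak over 47.5% of its span.

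Over all 10 genes, 239 of the 417 body peaks (57.3%) lay in the first or last 25% of their gene, or 1.15 times an even spread (exact binomial interval 1.05 to 1.24). By distance in kb, 61 peaks within 10 kb of a gene end were 0.770 times an even spread over the summed span and 1.03 times when the expected number was taken gene by gene, so no pooled direction is given. In successive steps of 25% from the start, Arid1b had 70, 44, 58 and 63 peaks, Arid1a 15, 10, 13 and 13, Smarca2 13, 9, 7 and 17, and Smarca4 7, 0, 4 and 9. The median width of the 452 peaks was 65 bp, as for all peaks. Listed positions are rounded to steps that grow along a chromosome: every base was possible at Arid1b, steps of 2 bp held at Smarca2 and Smarca4, and steps of 8 bp at the other 7 genes, so short widths there are coarse.

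Other subunits of the complexes were read from a list of 21 genes. All 21 had a peak within 5 kb, against 73.1% of all protein-coding genes, and 20 had a body peak, against 66.6%. Their median span was 29.6 kb, against 17.2 kb for all. Their median density was 0.293 peaks per kb, against 0.246 for the 10 genes above and 0.0941 for all protein-coding genes. Bcl11a, a zinc finger repressor of fetal globin genes that also joins BAF, had 75 peaks within 5 kb and 0.732 per kb of body. Bicral had 56 and Bicra 50, both subunits of the non-canonical BAF complex, and Bcl7a had 25. Actb, the cytoplasmic actin gene, had the highest density at 0.823 per kb, from 4 body peaks. Actl6a, the actin-like subunit of proliferating cells, had 0 in its body and 1 within 5 kb. Chosen after their values were seen, Pbrm1, a bromodomain subunit of PBAF, had 3 body peaks in 102 kb and Bcl11b, a T cell factor related to Bcl11a, had 3 in 93.7 kb, or 0.0293 and 0.0320 per kb. Arid2 had 0.331 per kb, against 0.0927 for Brd7 and 0.123 for Phf10, the other subunits particular to PBAF in the list, which were also named after their values were seen.

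**Figure D5:**
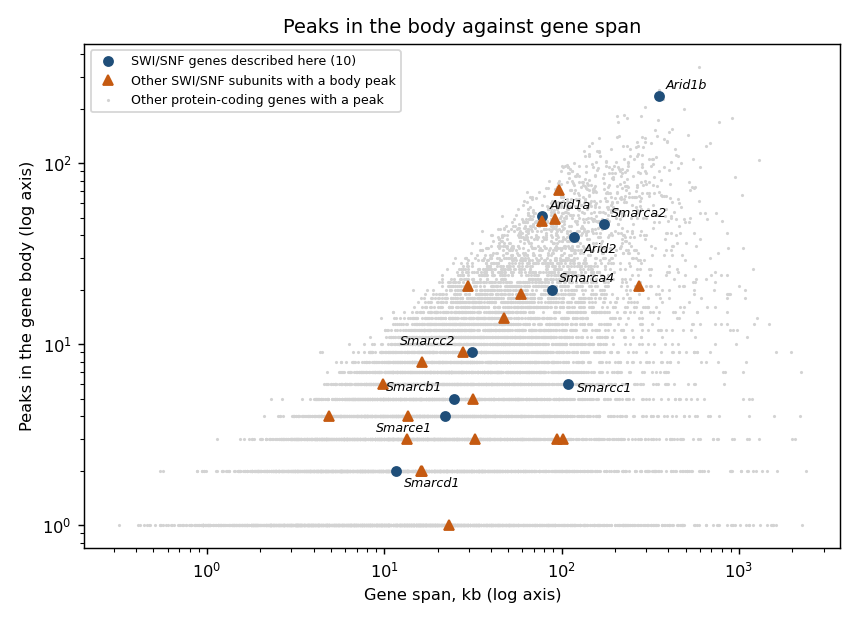
Peaks in the gene body (log y axis) against gene span in kb (log x axis) for the 10 SWI/SNF genes (blue circles, named), other SWI/SNF subunits with a body peak (orange triangles) and all other protein-coding genes with a body peak (grey dots). Arid1b, with 235 peaks over 353 kb, lies at the upper edge of the genes of its span. Smarcc1, with 6 over 108 kb, lies below the median of 9 of the 200 genes of like span, of which 40% had fewer and 57% more.

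Catalytic subunits of other remodelling complexes had a peak within 5 kb at 15 of 16 genes, against 73.1% of all protein-coding genes. Their median was 0.148 per kb of body, against 0.0941 over all genes. These 16 genes are also longer, with a median span of 75.4 kb against 17.2 kb. Chd7 had the most, with 104 peaks and 0.578 per kb. Smarca1, an ISWI ATPase on chromosome X, had 0.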

How the data were processed

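5hmC was measured by chemical capture and sequencing in 2 NIDF-AML samples and 1 normal marrow sample; the peak lists filed under the 2 leukaemia samples were used, and no file of normal marrow was analysed here. The deposited lists give chromosome, start and end with no score. Per the file headers, the authors called peaks with the PICS algorithm. The settings in the headers were 99 bp reads from fragments of 200 bp on average, a window of 250 bp that slid in steps of 20 bp, and a read count of at least 3 in a window and at least 10 in a region. The build mm10 is from the submitters' processing notes. The aligner and any score cutoff are not given in the sources used here.

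Repeated lines were counted once. The RefSeq table of GRCm38.p6 gave gene spans (all 10 genes matched, and gene models that start below 3 Mb, except on chromosome Y, were left out). The RefSeq window table gave strand and start site for 8 of the 10, taking the outermost start, and Arid2 and Smarce1 have none there. Counts have exact Poisson intervals, ratios exact intervals from the binomial distribution. With 1 list, no test between groups was made. The 10 genes and the gene lists were chosen with earlier results of these data known; the named genes are the 10 SWI/SNF genes and, of the other subunits, the 4 with most peaks, the 2 densest and those with none, with exceptions named in the text. Counting was tested on simulated peaks. Python 3.11.15, numpy 2.4.6, pandas 2.3.3, scipy 1.17.1 and matplotlib 3.10.9 were used.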

Additional observations from a re-analysis of the deposited data

How the results depend on the processing

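Counting repeated lines, flanks of 2 kb or none, any overlap of 1 bp, merging peaks within 200 bp, leaving out sequence shared with other genes, sequence more than 2 kb inside the gene, and 100 or 400 genes of like span left the other summary values within 1.5 times or within their counting interval. The total at the 10 genes was 467 with repeated lines, 428 with 2 kb flanks and 417 in bodies alone, against 452. The position of peaks turned direction: 1.15 times an even spread in the outer 25% at each end, against 0.770 within 10 kb of a gene end over the summed span and 1.03 with the expected number taken gene by gene, which was added after the data were seen. The summed span counts most of the length of the short genes, which had few peaks per kb, as within 10 kb of an end. With the start window widened to 1 kb on both sides, also added later, the number of genes with a peak there was still 0. Of single-gene values 6 moved by over 1.5 times, all at Smarcb1, Smarcc2 or Smarcd1: within 2 kb Smarcb1 and Smarcd1 had 5 peaks each, in the body alone Smarcb1 had 5, Smarcc2 9 and Smarcd1 2, and with shared sequence left out Smarcd1 had 0.102 peaks per kb, against 0.171. Of 100 genes of like span 54% had fewer peaks than Smarcb1, against 64% of 200. The number of SWI/SNF genes above the median of genes of like span was 7 with 100 such genes and with repeated lines, against 8. Without Arid1a and Arid1b, a choice added after the data were seen, the density at 10 to 20 kb from the start site was 0.135 per kb, against 0.460. The density ratio of Smarcc2 to Smarcc1 was 6.31 with repeated lines. Counted that way, Smarcc2 had 0.350 peaks per kb of body, above Arid2 with 0.331. Leaving out either replicate gave 452 each time because the lists are the same, and says nothing about stability. A stricter score threshold was not run because the lists hold no score. No paired analysis was possible because both lists hold the same lines and no list of normal marrow was analysed. Unknown read depth limits any reading of a missing peak.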
